A study of Caenorhabditis elegans with 2 samples.

Results

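The bZIP transcription factor genes examined here were cebp-1, cebp-2, zip-2, zip-7, zip-10, skn-1, xbp-1, atf-6 and atf-7, 9 of the 19973 protein-coding genes of the nuclear Caenorhabditis elegans genome. They were chosen by name, with earlier results of these data known, and every peak summit from 2000 bp upstream of each gene to its 3′ end was taken. Chromatin came from whole young adult hermaphrodites of strain RW10316, 64 hours after synchronization as starved L1 larvae, which carry the zinc finger factor DIE-1 with a C-terminal GFP-FLAG tag. The description names an anti-GFP antibody while the antibody field names die-1, and the only group had 2 biological replicates, so nothing could be compared between conditions. The deposited ce11 lists held 1432 reproducible peaks, 30000 relaxed peaks of the pooled reads, 23789 of replicate 1 and 29268 of replicate 2. The height of a peak is given as the signal the authors assigned to it, an enrichment value of unstated scale. The lists carry no read depths. A peak from whole worms does not show in which cells the tagged protein lay on the DNA.

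Most basic leucine zipper (bZIP) proteins pair through a coiled coil of leucines, and the basic regions of the pair grip short DNA sites, many of them palindromic. SKN-1 is an exception: it has a basic region but no leucine zipper, and binds DNA as a monomer. In worms they run many stress programmes. SKN-1, the relative of Nrf proteins, drives detoxification genes and also specifies early embryonic blastomeres. XBP-1 and ATF-6 act in the unfolded protein response of the endoplasmic reticulum, and ATF-7 in p38-dependent immunity. ZIP-2 and its partner CEBP-2 respond to infection and blocked translation, CEBP-1 acts below the kinase DLK-1 in axon regrowth, and ZIP-10 promotes death after cold shock.

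Reproducible DIE-1-GFP peaks lay at 5 of the 9 genes, and only the peak at cebp-1 lay in front of its gene. Those at zip-7, skn-1, atf-7 and zip-2 had their summits in introns. The background share was 6.88% of protein-coding genes with a reproducible summit in the same kind of window. The genes had been chosen with these peaks in view, so nothing is read from 5 of 9 against that share. Within 1000 bp upstream to 300 bp downstream of the gene start, 1 of the 9 (cebp-1) had such a summit, against 3.05% of genes. With the same distances from any transcript start it was 3 of the 9 (cebp-1, atf-7 and zip-2), against 3.39%. The sequence around each of the 5 summits is shown because it is the DNA on which the results turn. Each runs 5′ to 3′ on the strand of its gene over 100 bp on both sides of the summit, read from the RefSeq WBcel235 genome, the same build as ce11. The cebp-1 stretch is chrX:1454475-1454675, zip-7 is chrIV:16503694-16503894, skn-1 is chrIV:5657190-5657390, atf-7 is chrIII:4494684-4494884 (all 4 on the minus strand) and zip-2 is chrIII:833706-833906 (plus strand). Capitals mark TGACTCA, the AP-1 element, TGACGTCA, the cAMP response element, and GACGCAGAG or its reverse complement CTCTGCGTC, a word found again at more than 1 of these summits.
cebp-1: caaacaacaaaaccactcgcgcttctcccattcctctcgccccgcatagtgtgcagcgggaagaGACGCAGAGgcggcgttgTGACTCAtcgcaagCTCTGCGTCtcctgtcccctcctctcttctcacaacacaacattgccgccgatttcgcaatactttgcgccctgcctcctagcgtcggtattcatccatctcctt
zip-7: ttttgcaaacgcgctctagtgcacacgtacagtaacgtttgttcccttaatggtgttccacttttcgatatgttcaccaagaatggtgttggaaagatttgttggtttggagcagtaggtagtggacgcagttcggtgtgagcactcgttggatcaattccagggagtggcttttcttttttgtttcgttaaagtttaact
skn-1: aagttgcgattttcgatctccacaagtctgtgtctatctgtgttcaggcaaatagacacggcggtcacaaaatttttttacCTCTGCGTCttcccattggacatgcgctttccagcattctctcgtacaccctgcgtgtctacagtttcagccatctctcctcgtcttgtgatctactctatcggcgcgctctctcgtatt
atf-7: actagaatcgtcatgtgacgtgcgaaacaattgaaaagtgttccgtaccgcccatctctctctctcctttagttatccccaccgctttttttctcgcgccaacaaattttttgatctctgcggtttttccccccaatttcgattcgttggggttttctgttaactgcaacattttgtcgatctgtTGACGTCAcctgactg
zip-2: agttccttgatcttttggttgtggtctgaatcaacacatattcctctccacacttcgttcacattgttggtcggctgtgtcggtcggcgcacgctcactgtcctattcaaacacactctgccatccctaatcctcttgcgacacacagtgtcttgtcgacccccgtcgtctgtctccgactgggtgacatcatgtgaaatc

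The strongest of these peaks lay at zip-7, a member of the bZIP family. Its signal was 253.4 in the pooled reads, 99.8 in replicate 1 and 152.3 in replicate 2 (chrIV:16503712-16503927). It ranked 115 of the 1432 reproducible peaks, 145 of 23789 in replicate 1 and 99 of 29268 in replicate 2, so it stood near the top of every list. The replicate summits lay 1889 and 1896 bp from the start of the gene, and the pooled summit 1888 bp. The summit fell in the third and last intron of transcript Y51H4A.4a.1, which is 539 bp long, and 443 bp downstream of the start of the shorter transcript Y51H4A.4b. No annotated RNA gene lay within 200 bp. Among the 862 reproducible nuclear peaks away from tRNA, snoRNA, snRNA, rRNA and miRNA genes it ranked 12. At 216 bp it was also narrow: the median width was 436 bp, and 48 of those 862 peaks (5.57%) were no wider. A second, weaker peak in a coding exon, 404 bp from the start, had a pooled signal of 37.3, with 15.2 in replicate 1 and 20.9 in replicate 2.

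The zip-7 peak was also the only one of the 5 whose sequence had relatives elsewhere in the genome. BLAST alignments of the whole peak found 6 other places, with 71.3% to 86.8% identity, and none for cebp-1, skn-1, atf-7 or zip-2. The closest relative of the zip-7 sequence (86.8% over 106 bases) lay in a pseudogene on chromosome I at 1831623 to 1831728, with no summit within 200 bp in any list. A relative on chromosome III at 9110962 to 9111069 (73.6% over 110 bases) had a reproducible summit within 200 bp, with a signal of 82.6 in the pooled reads, 32.0 in replicate 1 and 56.3 in replicate 2. Of the other relatives, 3 had relaxed peaks outside the reproducible list, with pooled signals of 19.2 to 34.8. Those with 19.2 and 22.5 had no replicate 1 summit, and the weakest pooled peak of all had 18.4. The remaining relative, in the synaptotagmin gene snt-2, had no peak. How often a place in the genome has a relaxed summit this near was not computed. The part of shared sequence in the zip-7 signal was not tested.

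**Figure D1:**
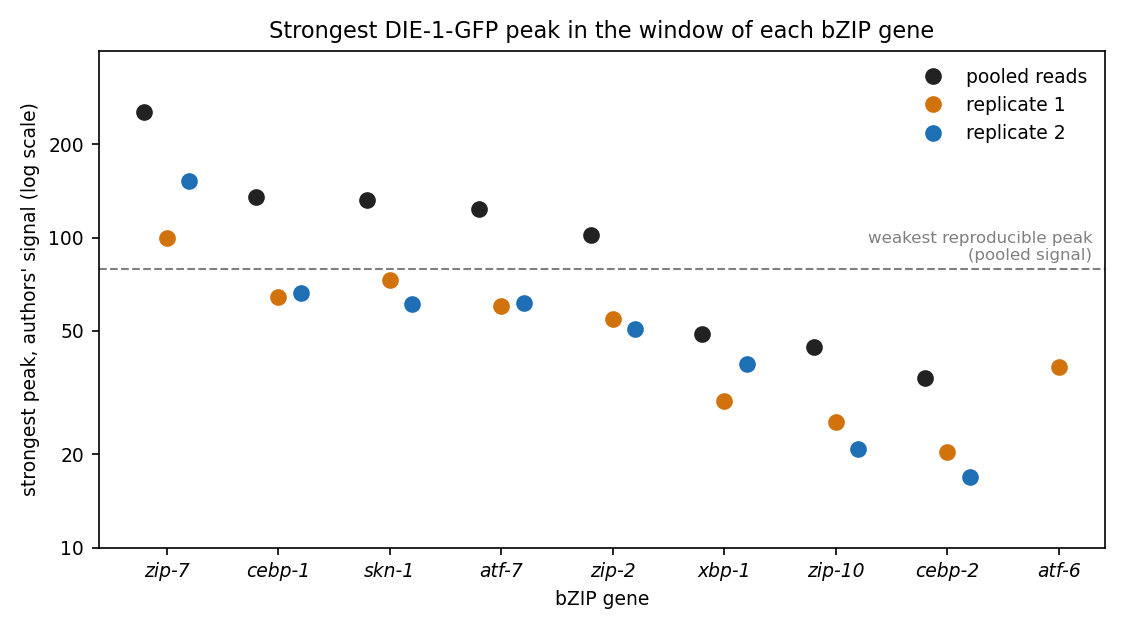
Strongest peak of each bZIP gene. Points give the authors' signal (log axis) of the strongest peak in the window of the gene in the pooled reads, replicate 1 and replicate 2. The dashed line is the weakest reproducible peak (79.4 in the pooled reads): the pooled points of zip-7, cebp-1, skn-1, atf-7 and zip-2 stand above it, and atf-6 has a point in replicate 1 only.

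At cebp-1, a C/EBP family gene of the DLK-1 pathway, the peak lay 707 bp upstream of the gene, between genes. Its signal was 135.3 in the pooled reads, 64.5 in replicate 1 and 66.1 in replicate 2 (chrX:1454357-1454792, rank 533). The replicates gave nearly the same signal, and their summits lay 5 bp apart. No other protein-coding window held this summit, and cebp-1 had the nearest gene start. The sequence above holds TGACTCA from 18 bp before the summit. It also holds GACGCAGAG on both strands, from 36 bp and from 4 bp before the summit. A weaker pooled summit in a coding exon (signal 29.8) was met by replicate 2 only (23.9).

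At skn-1 the peak lay deep in the first intron of the long transcript T19E7.2a.1, which spans 4347 bp. The signal was 131.8 in the pooled reads, 72.9 in replicate 1 and 60.9 in replicate 2 (chrIV:5657072-5657507, rank 565). The summit was 3094 bp from the start of the gene and 1685 bp before the start of transcript T19E7.2c.1, the nearest start of any skn-1 transcript. The ncRNA gene T19E7.26 lay 28 bp from this pooled summit, and T19E7.27 also lay within 200 bp. The summits of both replicates for this peak fell inside an annotated ncRNA gene, at a distance of 0 bp. A second pooled peak with a signal of 71.6 (rank 1761), which overlapped the first by 232 bp, had its summit 204 bp from it. It was the strongest pooled peak at any of the 9 genes outside the reproducible list, and its summit also fell inside an annotated ncRNA gene. Replicate 1 had a signal of 17.5 near that second summit, and the nearest replicate 2 summit was the one that also matched the first peak. In all, the 11346 bp window of skn-1 held 14 pooled summits, more than that of any other gene of the group, and 9 summits in each replicate. Of the 13 below the reproducible list, 4 had both replicates within 200 bp. Some of the 13 also lay in the window of clec-178, whose start was nearer, and others in that of bec-1. Those in the bec-1 window had no replicate summit within 200 bp. The intronic word CTCTGCGTC began 19 bp before the strongest summit.

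At atf-7, whose product is a target of the p38 kinase PMK-1, the summit lay 334 bp upstream of an internal transcript start. The signal was 124.0 in the pooled reads, 60.1 in replicate 1 and 61.4 in replicate 2 (chrIII:4494566-4495001, rank 625). The replicate signals hardly differed, and the summits lay 3 bp apart. The peak sat in the second intron of C07G2.2a.1 (4398 bp), 4261 bp from the start of the gene, in front of the short transcript C07G2.2c.1. TGACGTCA began 85 bp downstream of the summit on the strand of the gene. Of 6 weaker pooled summits in the window, with signals of 23.8 to 52.9, only the strongest, 2875 bp from the start, was met by both replicates, with 19.3 in replicate 1 and 31.1 in replicate 2. At the annotated start itself (21 bp) a weak pooled summit had 30.3, with a replicate 2 summit of 33.3 within 200 bp and none in replicate 1. The start of the gene C07G2.5 was nearer to this weak summit (14 bp), and the window of C07G2.5 held it too. C07G2.5 also had the nearest gene start to the reproducible summit, at 4254 bp.

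The zip-2 peak was the weakest of the 5, with 101.8 in the pooled reads, 54.7 in replicate 1 and 50.7 in replicate 2 (chrIII:833588-834023, rank 907). It lay in the first intron of K02F3.4.3 (1026 bp), 282 bp upstream of the start of transcript K02F3.4.1. The snoRNA gene K02F3.15 lay 197 bp away, just within the 200 bp used to call a peak near a short RNA gene. That holds for 38.9% of the reproducible nuclear summits. The summit also fell in the window of the neighbouring gene ceeh-1. A pooled peak 200 bp further on had a signal of 61.5 (rank 2458), and the replicate 2 summit lay between the summits, 137 bp from the stronger and 63 bp from the weaker. In replicate 1 each had its own summit, with 54.7 and 22.6. With a tolerance of 100 bp, zip-2 was therefore the 1 gene of the 5 whose reproducible summit was not met by both replicates. A summit 753 bp upstream of zip-2 (46.7) lay 48 bp inside ceeh-1, whose start was nearer.

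**Figure D2:**
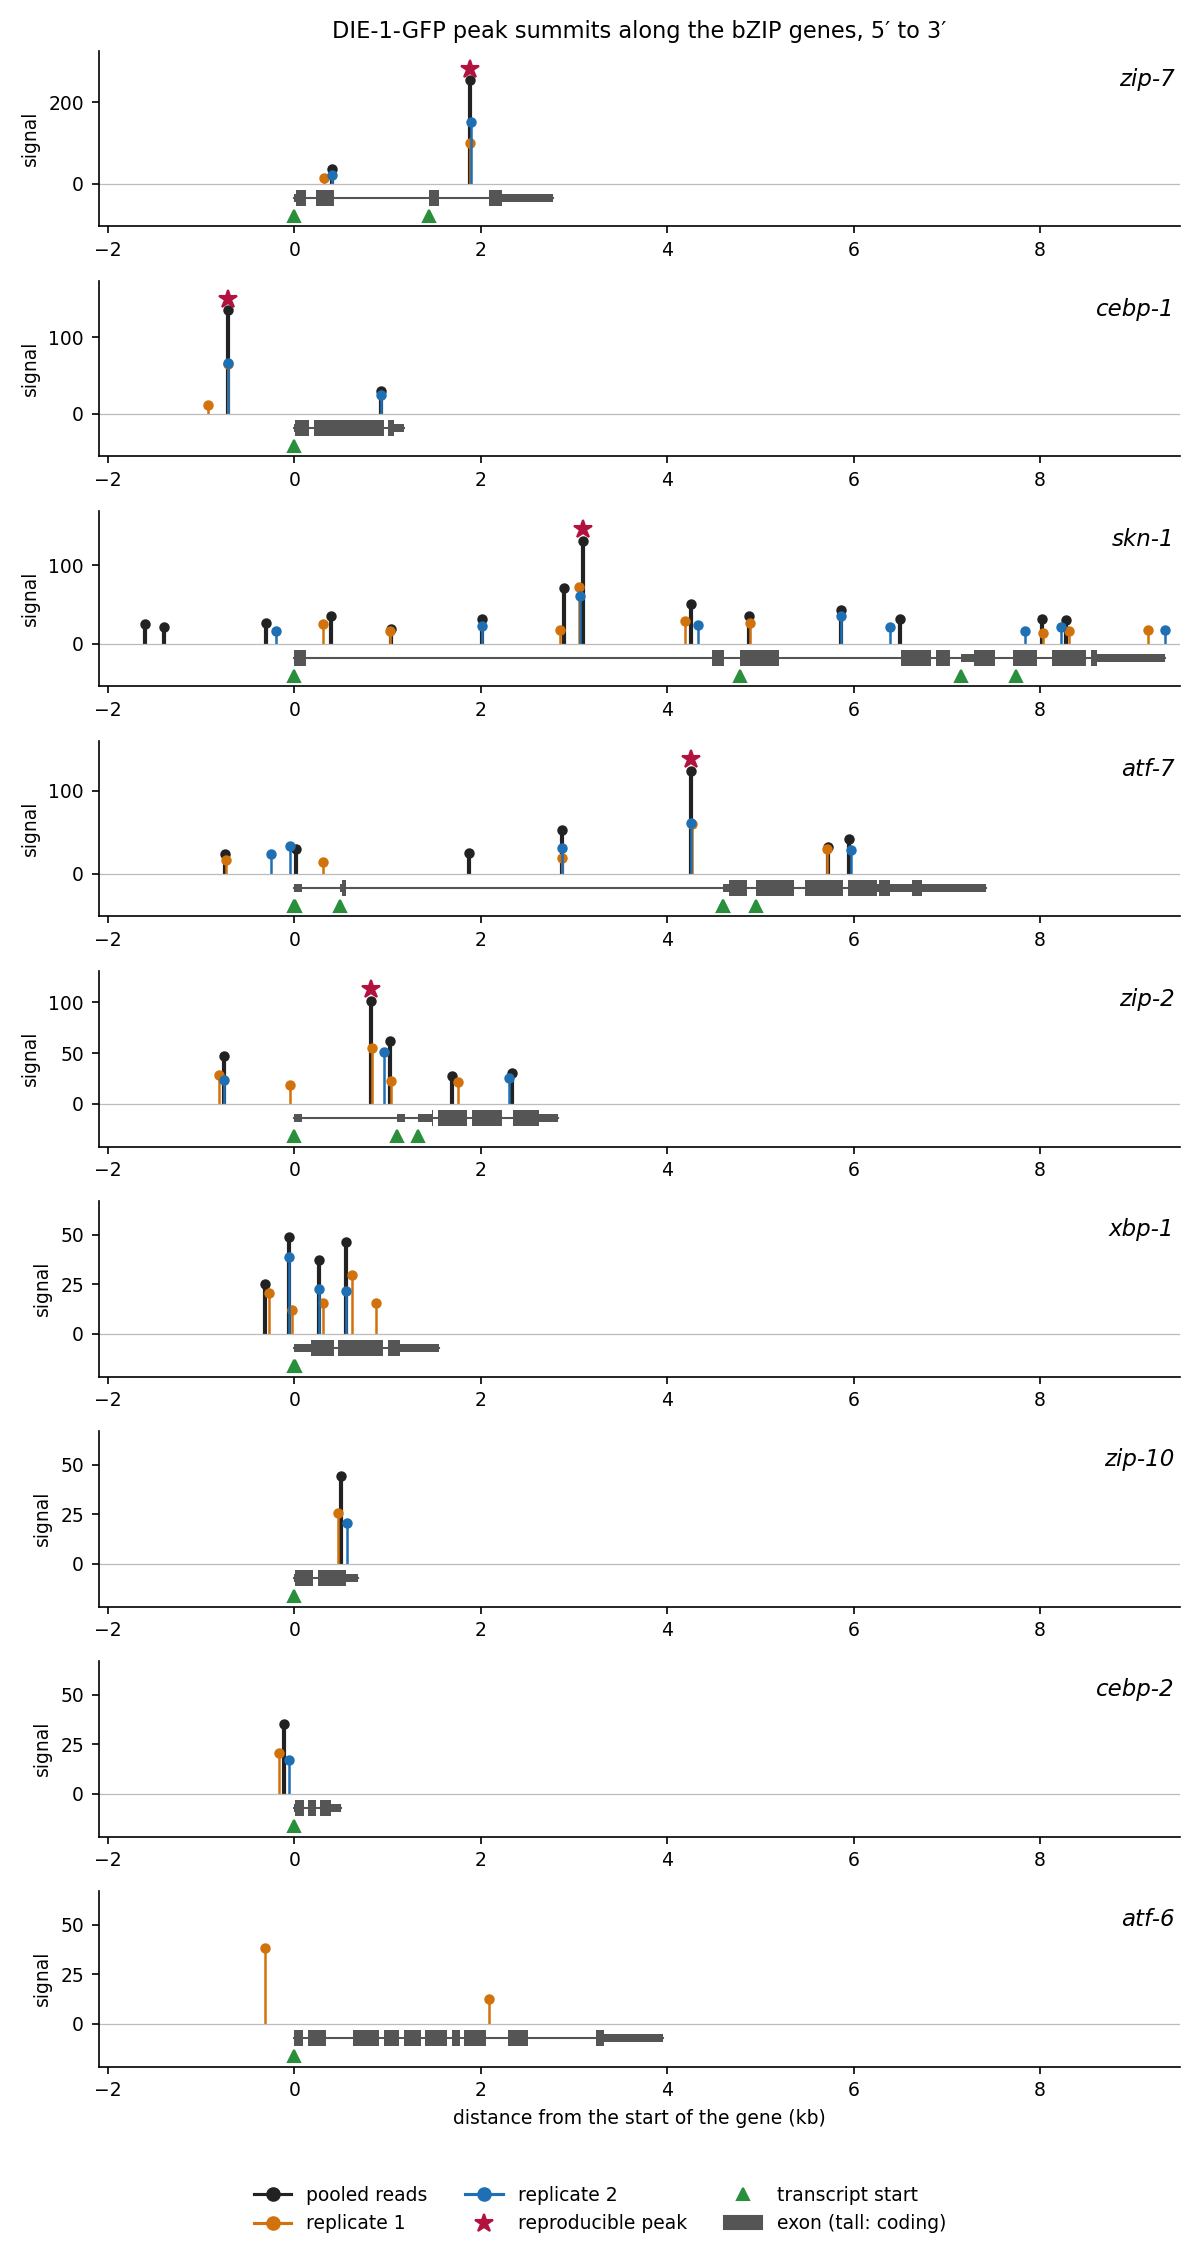
Summits along the 9 genes. The horizontal axis is the distance in kb from the start of each gene, drawn 5′ to 3′, and the height of a stem is the authors' signal in the pooled reads, replicate 1 or replicate 2. Stars mark reproducible peaks, green triangles transcript starts and boxes exons. The starred summit lies 707 bp before cebp-1, and in introns of zip-7, skn-1, atf-7 and zip-2, with a transcript start 334 bp downstream at atf-7 and 282 bp downstream at zip-2.

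The remaining 4 genes had no reproducible peak. At xbp-1, whose mRNA is spliced by IRE-1 so that it codes for the active factor, 4 pooled summits had signals of 24.95 to 49.0. The replicates placed their strongest peaks apart. At the summit 54 bp upstream of xbp-1, the pooled signal was 49.0 (rank 4197), with 12.1 in replicate 1 (rank 21578) and 39.1 in replicate 2 (rank 2277). At the coding exon summit 558 bp downstream, the pooled signal was 46.4, with 29.7 in replicate 1 and 21.7 in replicate 2. At zip-10, the only pooled summit lay in a coding exon 503 bp from the start, with 44.4 in the pooled reads, 25.5 in replicate 1 and 20.9 in replicate 2. At cebp-2, a summit 112 bp upstream had 35.3 in the pooled reads, 20.4 in replicate 1 and 16.9 in replicate 2, and the window of lpd-2 held it too. The cebp-2 peak ranked 6815 of 23789 in replicate 1, above the median signal of that list (16.3), and 17810 of 29268 in replicate 2, below the median of that list (18.6).

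atf-6, an endoplasmic reticulum stress sensor gene, was the only one of the 9 with no pooled summit. Replicate 1 alone had a peak 319 bp upstream, with a signal of 38.2 (rank 1439), and a second in an intron with 12.7. The nearest replicate 2 summit was 5901 bp from the first, and the nearest pooled summit 5664 bp. Of 1419 nuclear replicate 1 peaks of that rank or better, 16 (1.13%) had no pooled summit within 200 bp, and the atf-6 peak was one of these. A pooled summit was present at 8 of the 9 genes, against 64.2% of protein-coding genes, and at 17 of 19 further bZIP genes. At least 1 replicate 1 summit was present at 9 of the 9, against 60.2%, and a replicate 2 summit at 8 of the 9, against 66%. The windows of the 9 genes had a median length of 4773 bp, against 4027 bp over all protein-coding genes. The 9 genes were also chosen with their peaks known, so nothing is read from these shares.

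**Figure D3:**
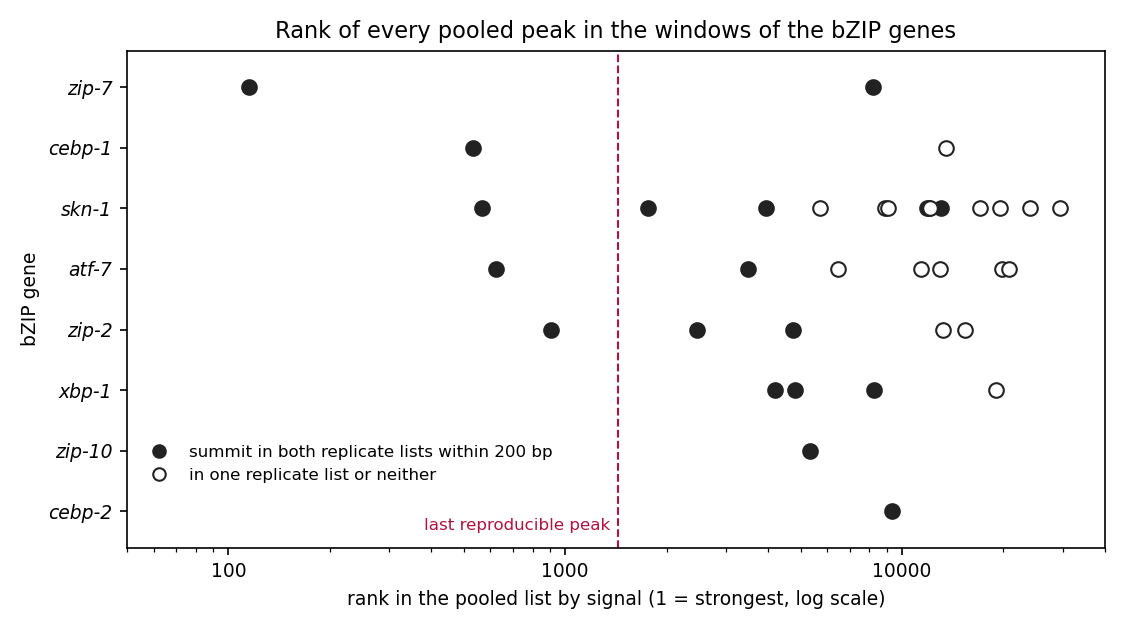
Ranks of the pooled peaks at 8 of the genes (atf-6 has none). Each point is a pooled peak, placed by its rank among 30000 on a log axis, and filled points have a summit of both replicates within 200 bp. The 5 points left of the dashed line, at ranks 115 to 907, are the reproducible peaks, and the next, at skn-1, has rank 1761.

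Across the group, pooled signal at the reproducible summits had a median of 131.8 over the 5 genes, against 114.9 over the 1411 reproducible nuclear peaks and 99.7 over the 862 away from short RNA genes. Both replicates had a summit within 200 bp at 5 of the 5, against 99.5% of reproducible nuclear summits. The reproducible list was made from the agreement of these same replicates, so this match was largely fixed in advance. Below the reproducible list, 13 of 31 pooled summits at the 9 genes had both replicates, against 35.1% of weaker nuclear summits. Of those 31, 7 had replicate 1 only, 8 had replicate 2 only and 3 had neither. By gene part, 16 of the 36 pooled summits lay in introns, 10 in coding exons, 9 upstream and 1 in a 5′ UTR. The windows span whole gene bodies, and no share by gene part was taken over all genes. Nothing is therefore read from the placing of these or of the reproducible summits in introns. The windows held 0.746 pooled summits per kb, against 0.339 per kb over the windows of all protein-coding genes, and the genes were not chosen independently of these lists.

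The balance between the replicates differed along the group. The ratio of replicate 2 to replicate 1 signal was 0.836 at skn-1, 0.927 at zip-2, 1.02 at atf-7 and cebp-1, and 1.53 at zip-7. Over the 1404 reproducible nuclear summits with both replicates the median was 1.36, with quartiles of 1.08 and 1.66. The skn-1, zip-2, atf-7 and cebp-1 values thus lay under the lower quartile, with 8.62% to 21.2% of summits below them, while zip-7 lay between the quartiles. Away from short RNA genes the median ratio was 1.29 over 856 summits, with quartiles of 0.975 and 1.65, so that skn-1 and zip-2 still lay under the lower quartile and atf-7 and cebp-1 did not. No test is given, since the signals of the same replicates entered the choice of the genes.

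**Figure D4:**
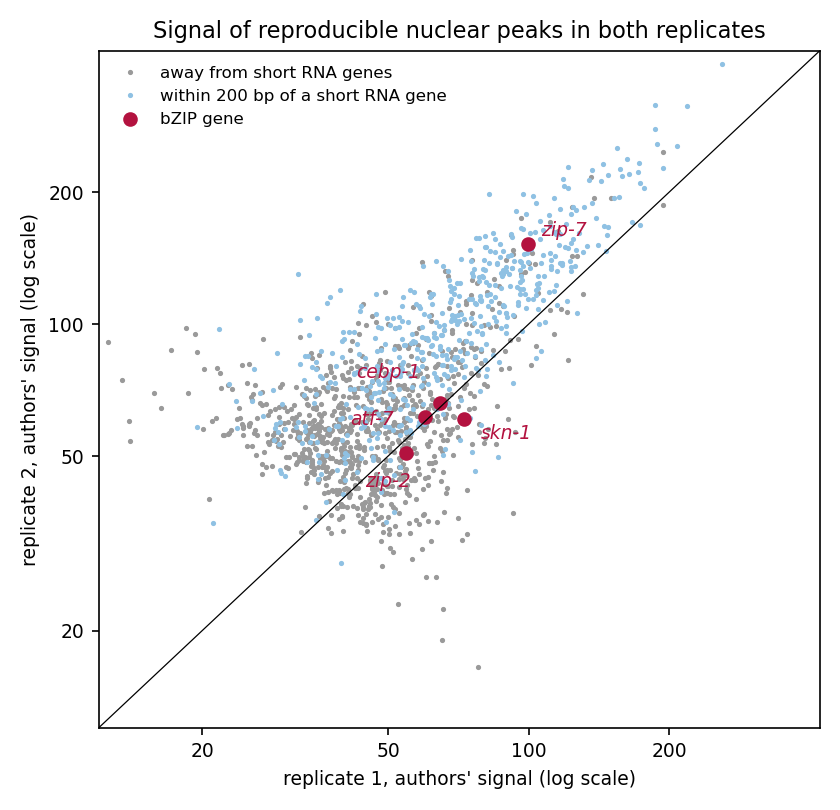
Signal of reproducible nuclear peaks in replicate 1 (horizontal) and replicate 2 (vertical), both on log axes, with the line of equal signal. Grey points lie away from short RNA genes, blue points within 200 bp of one, and red points are the bZIP genes. The other 4 genes sit together near equal signal, and zip-7, at 99.8 in replicate 1 and 152.3 in replicate 2, lies above the line among blue and grey points. No short RNA gene is annotated there, and 67.6% of summits away from such genes had a lower ratio of replicate 2 to replicate 1.

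Letter patterns that bZIP proteins are known to bind, and the tRNA B box core, were searched under the summits. A site for the SKN-1 monomer was not among them. Within 50 bp of the summit, on either strand, TGACTCA was present at cebp-1 only, against 0.709% of the 1411 reproducible nuclear windows. TGACGTCA, the XBP-1 element TGACGTGG, the C/EBP palindrome TTGCGCAA and the tRNA B box core GGTTCGA were at none of the 5. These were in 0.425%, 0.0709%, 0.567% and 13.8% of the windows. Within 100 bp, TGACGTCA was also at atf-7, against 0.921% of windows. A match is a description of letters, not of binding. The longest run shared by any pair of the 5 sequences was AGACGCAGAGG, 11 bases, in cebp-1 and skn-1. The word GACGCAGAG within it was chosen after the sequences had been read. It was in 2.69% of reproducible nuclear windows of 100 bp on each side, in 3.94% of those away from short RNA genes and in 0.956% of windows of weaker pooled peaks. The share depended on the word taken from the run. AGACGCAGA was in 6.52% of reproducible nuclear windows and 2.02% of weaker ones, and ACGCAGAGG in 0.425% and 0.147%. GC content of the 5 sequences was 42.8% at zip-7, 44.8% at atf-7, 47.8% at skn-1, 50.7% at zip-2 and 56.2% at cebp-1. The median for windows away from short RNA genes was 44.3% (quartiles 38.8% and 50.2%), so zip-7 lay below it, and zip-2 and cebp-1 lay above the upper quartile. Over all reproducible nuclear windows the median was 45.3%, against 40.3% for windows of weaker pooled peaks. The word shares above thus compare sets of unlike GC content, and the part of GC content in them was not tested.

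Of 20 further bZIP names, 19 matched a gene, and 1 of these (5.26%, against the background of 6.88%) had a reproducible summit, a share near the background. No comparison with the 9 genes is made, since these were chosen with their peaks known. The gene was crh-2, a CREB family gene, with 113.5 in the pooled reads, 61.4 in replicate 1 and 54.0 in replicate 2, again in an intron (5843 bp from the start). The strongest pooled signals of the other family members were 69.9 at crh-1, 69.0 at zip-4 and 57.1 at zip-11, and ces-2 and zip-6 had no pooled summit. Among 18 kinases and regulators that act above these factors, 4 had a reproducible summit. They were tir-1 (149.7), the adaptor of the p38 pathway that leads to ATF-7, akt-2 (110.1), wdr-23 (101.6), whose product holds SKN-1 low, and the phosphatase gene vhp-1 (81.5). The wdr-23 summit lay 68 bp upstream of its gene. Among 18 stress response genes, 5 had one: cdc-48.1 (231.8), hsp-60 (174.3), hsp-3 (142.2), which codes for an endoplasmic reticulum chaperone, hsp-6 (110.3) and crt-1 (108.7). These lists were drawn up with results known and were not tested.

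By signal in the pooled, replicate 1 and replicate 2 lists together, the protein-coding gene outside the lists most like zip-7 was C04C11.25 (257.5, 101.9 and 154.2). Likeness was the distance in log10 signal over these 3 lists, among 1355 or 1356 genes. The gene most like cebp-1 was sym-4 (132.2, 63.0 and 66.8), and that most like atf-7 was lin-53 (121.8, 59.97 and 59.9). For skn-1 it was C15F1.5 (131.6, 74.8 and 60.9) and for zip-2 Y75B12B.3 (103.7, 55.2 and 52.6). The distances were 0.0111 to 0.0179 log10 units. Likeness was in signal only. The C04C11.25 and C15F1.5 summits lay within 200 bp of a short RNA gene of the kinds counted above, unlike those at zip-7 and skn-1. The reverse held for zip-2, which lay near one while Y75B12B.3 did not.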

How the data were processed

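The peak lists on ce11 were used as deposited by the authors: the reproducible list from both replicates and the relaxed lists of the pooled reads and of each replicate. Per the file layout, the signal is the deposited enrichment value of a peak and the authors' −log10 q-value stands beside it. That value was 2.41 for all reproducible peaks, so peaks were ranked by signal. Summits were the peak start plus the deposited offset. The sources used here do not name the caller, aligner, IDR threshold or read depth, and the control of the authors, the ce10 lists and reads were not used here.

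Summits were placed on Ensembl 115 gene models (WBcel235, the build named ce11). A replicate summit counted as shared within 200 bp, and a short RNA gene as near within 200 bp. Sequences came from RefSeq, and relatives from BLAST 2.17.0. Scripts ran in Python 3.11.15 with pandas 2.3.3, numpy 2.4.6 and matplotlib 3.10.9. The placing of summits was tested on simulated data. The genes and lists were chosen with earlier results of these data known, so no test was made. The text names all 9 genes, up to 4 genes per further list (5 for stress genes, the fifth added after its value was seen), genes around the summits and the most alike gene per summit. The strongest signals of crh-1, zip-4 and zip-11, which have no reproducible peak, were also named after their values were seen. Alternatives were other windows, stricter peaks, other tolerances and each replicate alone.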

Additional observations from a re-analysis of the deposited data

How the results depend on the processing

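The number of bZIP genes with a reproducible summit depended on the window. It was 5 of 9 with the gene body, but 1 (cebp-1) with 1000 bp upstream to 300 bp downstream of the gene start, and 0 with 500 and 100 bp. The summits counted were likewise 5, 1 and 0. Around any transcript start (an alternative chosen after seeing the data) 3 genes had one: cebp-1, atf-7 and zip-2. Each replicate alone gave the same 5 genes, which a list made from both replicates largely fixes in advance. Without peaks at short RNA genes zip-2 was lost, in the 50% of reproducible peaks with the highest signal zip-2 was lost, and with the nearest gene start only atf-7 was lost. The background share of 6.88% was 2.02% and 3.05% in the narrow and the promoter window, 10.5% with 5000 bp upstream, 4.79% without peaks at short RNA genes, 3.24% in the stronger 50%, 4.40% by nearest start, 8.01% by any overlap and 3.39% at any transcript start. Without 1 replicate it was 6.77% to 6.95%. The median signal of 131.8 was 135.3 in the promoter window and 61.4 to 64.5 in 1 replicate alone, whose signals are lower throughout. With 100 bp on each side, 2 of 5 summits held a searched motif, against 1 with 50 bp. No paired analysis was possible because there was only 1 group. With 2 replicates and no depth, no error beyond the 2 values can be given.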

Other observations

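Of the 10 reproducible summits at the upstream regulators and stress response genes, 5 lay upstream of the gene, 4 in a 3′ UTR and 1 in an intron. Those upstream were at cdc-48.1 (231.8, the strongest of the 10), hsp-60, hsp-3, akt-2 and wdr-23. In the 3′ UTR lay the summits at tir-1 (149.7), 8 bp inside the annotated end, at crt-1 (108.7), 27 bp inside it, at hsp-6 (110.3), 110 bp inside it, and a second summit at cdc-48.1 (114.6), 51 bp inside it. The replicates differed at some of these: hsp-6 had 73.6 in replicate 1 and 41.8 in replicate 2, while the second cdc-48.1 summit had 41.5 in replicate 1 and 79.4 in replicate 2. At tir-1 the values were 85.7 in replicate 1 and 65.2 in replicate 2. No share of summits by gene part was taken over all genes, so nothing is read from the placing of these 10.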
